A study of Mus musculus with 2 samples.

Results

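The genes described here encode complement proteins and their inhibitors: C1ra, C1s1, C2, C3, C4b, Cfb, Cfi, Serping1 and Cd59a. They were followed in primary mouse cultures of the retinal pigment epithelium (RPE), a pigmented sheet of cells that supports the photoreceptors. The members were chosen by gene symbol, as all probe sets that the platform annotation assigns to these 9 genes. This gave 12 of the 45101 probe sets on the array, a probe set being a group of short oligonucleotides that reports on 1 transcript. Of these, 10 were annotated to a single gene and 2 to a pair of near-identical genes, C1rb with C1ra and C4a with C4b. Counting shared probe sets, 8 of the 19324 genes in the annotation belong here. Of the 9 listed genes, 7 had a probe set of their own, C4b was covered only by the probe set it shares with C4a, and C3 is not analysed here.

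Total RNA came from 2 cultures kept for 14 days in medium with 20% serum, then moved to serum-free medium overnight before extraction. The first culture was untreated, and the second was stimulated with interferon gamma (IFNg), a lymphocyte cytokine, for 24 h at 100 U/ml. The labels describe the RPE as 95% cytokeratin-positive and name neither mouse strain nor age. Each group had 1 culture on 1 array, so no replicate error and no p-value exist, and "higher" and "lower" describe these 2 arrays. The number of arrays limits the precision.

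Complement is a cascade of proteases in blood and tissue fluid. In the classical pathway the recognition protein C1q activates the proteases C1r and C1s, which cleave C4 and C2 into the convertase that activates C3. The alternative pathway builds its convertase from C3 and factor B. Factor I and the C1 inhibitor restrain these enzymes, and CD59 on the cell surface blocks assembly of the membrane attack complex. RPE cells are known to make several complement components and regulators themselves, and complement proteins are found in the deposits that form beneath the RPE in ageing eyes.

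Signals are the deposited probe-set intensities, in arbitrary units that cannot be set against each other between genes. For ratios, any signal below 20.4, the median of both arrays pooled, was raised to this floor, and a gene took the value of its brightest own probe set. The median signal was 20.1 untreated and 20.8 with IFNg. The interferon-response genes Irf1 (319.1 and 3391.1) and Psmb9 (69.6 and 2551) were far brighter on the IFNg array. Of the RPE marker list, 14 of 19 genes were above the floor on at least 1 array, among them Otx2, Tyr, Krt8 and Krt18. Pmel, Slc16a8 and Lrat passed it on 1 array only. The other 5, which were the visual cycle isomerase gene Rpe65 and Best1, Rgr, Dct and Cdh1, were below it on both. Of the 14 genes above the floor, 10 had ratios below 0, beside 57.5% of all genes above it on at least 1 array. At least 2-fold lower with IFNg were 5 (Rlbp1, Rdh5, Ttr, Tyrp1 and Cdh3), beside 4.48% of all these genes. The median log2 ratio of the 14 was -0.51, beside -0.12. A dimmer Tyrp1 probe set (17.7 and 25.7) was brighter with IFNg. The part of these marker differences in the complement results was not tested. Fibroblast genes were bright on both arrays, with a summed signal over 12 genes of 80884 and 76244, and their part in the results below was not tested.

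With IFNg, the classical pathway proteases and the C1 inhibitor had the higher ratios among the complement members, while factor B differed little and Cd59a was slightly lower. Of the 7 member genes with a probe set of their own, 2 (C2 and C1s1) were at least 2-fold higher, 0 were 2-fold lower and 5 lay between. Across all 12743 genes above the floor on at least 1 array, 8.82% were at least 2-fold higher and 4.48% at least 2-fold lower. The members' median log2 ratio of IFNg over untreated was 0.84, beside -0.12 over all these genes. Ratios were above 0 for 5 of the 7 members and for 42.5% of all these genes. With so few genes these are descriptions of the members, with no test. The members were also chosen with earlier results of these data known, so the comparison with all genes is not independent of the data.

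**Figure D1:**
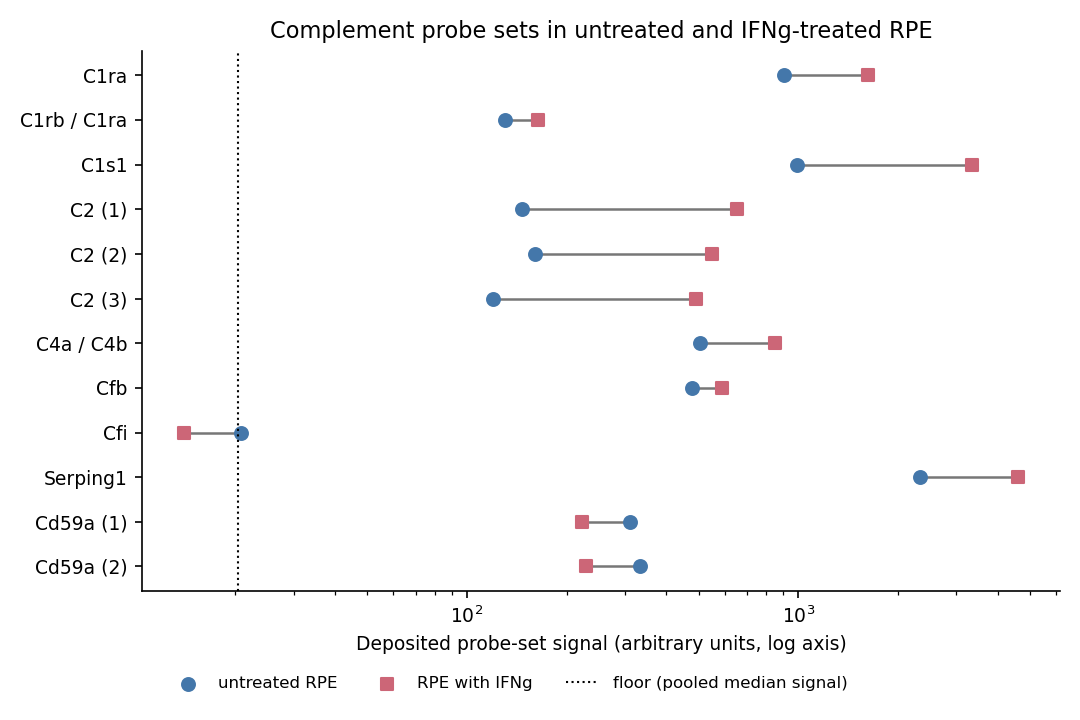
Deposited signals (arbitrary units, log axis) of the 12 complement probe sets on the untreated array (blue circles) and the IFNg array (red squares), 1 array each, with the floor as a dotted line and numbers in brackets separating probe sets of the same gene. The IFNg array is brighter for every probe set except those of Cfi and Cd59a, and the 3 C2 probe sets have the longest spans together with C1s1.

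C2, whose protein supplies the protease of the classical and lectin C3 convertase, had the highest ratio of the members. Its brightest probe set (1416051_at) gave 146.5 untreated and 653 with IFNg. A further probe set (1441912_x_at) had 160.1 and 550.5, and the last (1457664_x_at) had 119.9 and 492.1. All 3 were brighter with IFNg, by 4.46-fold, 3.44-fold and 4.10-fold. The IDs of 1441912_x_at and 1457664_x_at mark sequence shared between transcripts or genes, and only 1416051_at has no such ID. In the same order, the log2 ratios of all 3 were 2.16, 1.78 and 2.04, with an SD of 0.19 between these probe sets. That SD is technical, since the probe sets read the same RNA. For comparison, the pooled SD between probe sets of a gene was 0.44 on the log2 scale over 4419 genes. Of all genes above the floor, 0.989% had a ratio at least as high as that of the brightest C2 probe set.

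Cfb encodes factor B, the alternative pathway counterpart and paralog of C2, and in the mouse genome the genes lie side by side. Its single probe set (1417314_at) gave 476.8 untreated and 588.6 with IFNg, so the arrays were close to each other. The ratio was 1.23-fold (log2 0.30), a value that 27.8% of all genes above the floor reached or passed. The log2 ratio of C2 exceeded that of Cfb by 1.85. The pooled SD of 0.44 between probe sets of a gene is technical and does not measure a gap between different genes. Whether the gap exceeds the spread between cultures cannot be told from 1 culture per group.

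C4b encodes complement C4, a substrate of C1s, and stands close to C2 and Cfb in the same stretch of the genome. Its only probe set (1418021_at) is annotated to C4a as well, a near-identical copy that the reference gene table lists as a transcribed pseudogene, and the array cannot separate them. The shared signal was 506.8 untreated and 850.5 with IFNg, that is 1.68-fold higher (log2 ratio 0.75). It was brighter with IFNg but stayed within 2-fold.

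C1ra and C1s1 encode the proteases C1r and C1s, which form the enzymatic core of the C1 complex. C1s1 (1424041_s_at) had signals of 990.5 and 3345.4 and was 3.38-fold higher with IFNg (log2 ratio 1.76). Only 1.91% of all genes above the floor had a ratio at least as high. The ID of this probe set marks sequence shared between transcripts or genes, and C1s2, a close copy beside C1s1, has no probe set of its own, so the signal may hold transcripts of both. C1ra (1417009_at) had 903 untreated and 1618.3 with IFNg, which is 1.79-fold (log2 ratio 0.84). The probe set shared by C1rb and C1ra (1456437_x_at) was dimmer, at 129.9 and 164.2, and its ratio was smaller, at 1.26-fold (log2 0.34). Both C1r probe sets were thus brighter with IFNg and within 2-fold, and the log2 ratio of C1s1 was 0.91 above that of C1ra.

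Serping1 encodes the C1 inhibitor, a serpin that inactivates C1r and C1s and the lectin pathway proteases. Its signal was 2326.8 untreated and 4605 with IFNg. The ratio was 1.98-fold (log2 0.98), just within 2-fold, and 9.17% of all genes above the floor were at least as high. It passed 2-fold under quantile normalization and under a loess correction, so its side of that threshold rests on the scaling. The inhibitor's log2 ratio lay 0.14 above that of C1ra and 0.77 below that of C1s1.

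Cfi encodes factor I, the protease that cuts activated C3 and C4 with the help of cofactors. Its signal was 20.8 untreated and 14.0 with IFNg, the first at the edge of the floor and the second below it. No fold is given, since both values lie among the dim probe sets where background is unknown.

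Cd59a encodes the membrane anchor-bound inhibitor of the membrane attack complex and was the only member above the floor on both arrays with lower signals under IFNg. The brighter probe set (1429830_a_at) had 332.9 and 228.2, and the other (1418710_at) had 310.1 and 221.9. These are 1.46-fold and 1.40-fold lower, with log2 ratios of -0.55 and -0.48. The probe sets gave nearly the same ratio, both within 2-fold, and the lower quartile of all genes above the floor was at -0.48.

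**Figure D2:**
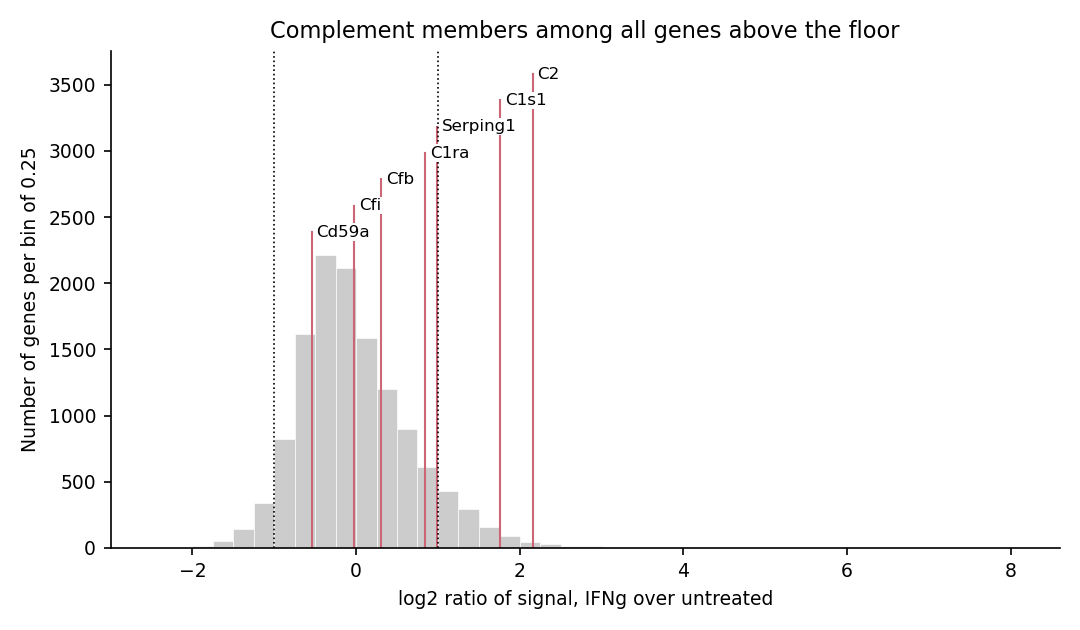
Histogram of log2 ratios of signal (IFNg over untreated, bins of 0.25) for the 12743 genes above the floor on at least 1 array, with red lines at the 7 complement genes that have their own probe set and dotted lines at 2-fold. C2 (2.16) and C1s1 (1.76) lie in the right tail, Serping1 (0.98) and C1ra (0.84) on its shoulder, and Cfb (0.30), Cfi (-0.03, a bound) and Cd59a (-0.55) in the bulk.

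The promoter sequences that could be matched to members were searched for letters known from interferon-responsive genes. RefSeq promoter windows of assembly GRCm38.p6, from 250 bases before to 50 after each listed start, matched 4 of the 9 members, and those of C1ra, C1s1 and Cd59a are described here. These 3 were the members analysed here that had a window. The neighbouring C1ra and C1s1 had higher signals with IFNg, and Cd59a had lower ones. For each gene the 250 bases before the start are shown. They are written in the direction of transcription, with capitals marking a match to the core of the interferon-stimulated response element (ISRE), which is TTTC, 2 bases of any kind and TTTC again, or on the other strand GAAA in the same arrangement. The C1ra stretch is chr6:124512371-124512620 on the plus strand, the C1s1 stretch is chr6:124542360-124542609 on the minus strand, before the more upstream of its 2 listed starts, and the Cd59a stretch is chr2:104095551-104095800 on the plus strand.
C1ra: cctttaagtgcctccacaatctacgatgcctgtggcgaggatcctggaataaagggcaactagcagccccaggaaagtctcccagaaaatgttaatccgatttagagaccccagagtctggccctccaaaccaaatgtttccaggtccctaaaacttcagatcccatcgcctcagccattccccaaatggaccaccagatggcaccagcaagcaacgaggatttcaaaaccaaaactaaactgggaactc
C1s1: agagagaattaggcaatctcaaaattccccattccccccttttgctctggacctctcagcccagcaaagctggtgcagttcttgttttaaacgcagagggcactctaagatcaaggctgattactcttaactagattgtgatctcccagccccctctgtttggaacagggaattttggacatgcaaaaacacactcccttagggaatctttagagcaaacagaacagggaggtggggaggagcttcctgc
Cd59a: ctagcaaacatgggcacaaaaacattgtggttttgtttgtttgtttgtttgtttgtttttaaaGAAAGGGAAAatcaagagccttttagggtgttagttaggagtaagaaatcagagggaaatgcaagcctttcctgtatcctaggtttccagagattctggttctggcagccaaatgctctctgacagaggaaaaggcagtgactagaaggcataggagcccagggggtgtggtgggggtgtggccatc

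The windows were also searched for the STAT-binding GAS core, TTCNNNGAA, which is its own reverse complement. The C1ra window held 1 match, and it lies after the start, from base 33 to base 41 counted from the first transcribed base as 1. It is shown with its flanks, at chr6:124512644-124512670 on the plus strand, with the match in capitals.
C1ra site: aatgcttcaTTCCCTGAAacattcctc
Both C1s1 windows held neither motif, which says only that these letters are not there. The Cd59a window held the ISRE core from 187 to 178 bases before the start. No window of these 3 genes held both motifs. Of all 32851 promoter windows in the table, 8.30% held the GAS core and 3.44% the ISRE core. A match is a description of the letters and not of binding. Any part of these motifs in the ratios was not tested, and C2, C4b, Cfb, Cfi and Serping1 had no promoter window to search.

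The genes beside each member were measured in the same way. For every member except C3, the 3 protein-coding genes on each side in the reference gene table were taken, passing over other members. Of the 35 genes so found, 24 had a signal over the floor on at least 1 array. Of these 24, 1 was at least 2-fold higher and 0 were 2-fold lower, with a median log2 ratio of -0.28. Over all genes above the floor, 8.82% were 2-fold higher and 4.48% lower, with a median of -0.12, so these counts are near the background and show nothing particular to the neighbours. With the floor lowered to the pooled 25th percentile, 4 neighbours were 2-fold higher and 0 lower, beside 13.6% and 12.4% of all genes above that floor. The added ones (Rrh, Ypel4 and a gene model) were dim. Around C2, Cfb and C4b, which lie among the MHC class III genes, all 11 neighbours were above the floor. Their log2 ratios ran from -0.78 (Zbtb12, signals 40.8 and 23.7) to 0.21 (Cyp21a1, signals 5.3 and 23.6, a bound). Stk19 had 86.0 on both arrays, and the 9 others had ratios below 0, Slc44a4 among them as a bound, beside 57.5% of all genes above the floor. Ehmt2, a histone methyltransferase gene near C2, had 745.7 and 630.2, and Nelfe, a subunit gene of the negative elongation factor, had 308.3 and 215.7. Of these 11, none was counted as 2-fold higher. Cyp21a1 is a bound at this floor, and with the floor lowered to the pooled 25th percentile a different Cyp21a1 probe set was the brightest and had a log2 ratio of 0.17.

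Beside C1ra and C1s1, 3 of 6 neighbours were above the floor and none passed 2-fold. Lpcat3, a phospholipid acyltransferase gene, had 862.1 and 557.9, and the peroxisome import gene Pex5 had 156.1 and 102.2. The dim Clstn3 had 21.7 and 39.8 and was the 1 neighbour of this locus with a ratio above 0. The neighbour past 2-fold at the reported floor was Ube2l6, the ISG15-conjugating enzyme gene near Serping1. It had signals of 36.2 and 240 and was 6.63-fold higher (log2 ratio 2.73), a larger ratio than that of Serping1 itself. The other Serping1 neighbours above the floor, Clp1, Timm10 and Zdhhc5, lay within 2-fold.

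**Figure D3:**
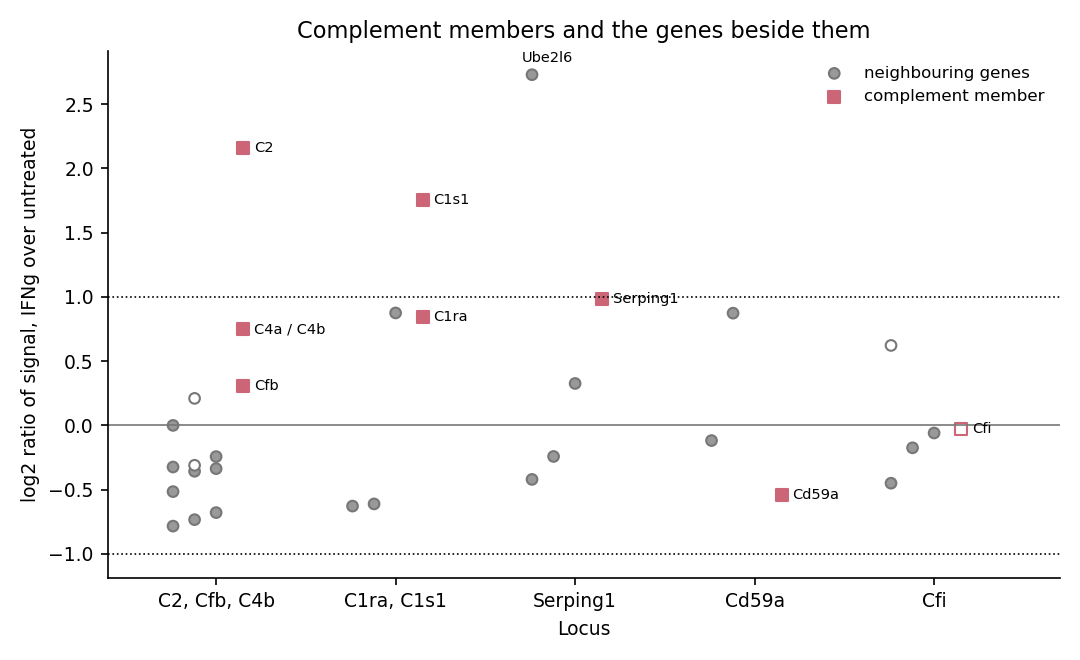
Log2 ratios of signal (IFNg over untreated, 1 array each) of the complement members (red squares) and of the neighbouring protein-coding genes above the floor (grey circles), by locus, with open symbols for bounds and dotted lines at 2-fold. Around C2 (2.16) the plotted neighbours run from -0.78 to 0.21, the upper value being a bound, and Ube2l6 (2.73) beside Serping1 is the neighbour plotted past 2-fold at this floor.

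A wider list of 46 complement genes that are not members held 36 with a probe set of their own. Of these, 22 were above the floor on at least 1 array and 14 on neither. None of the 22 was 2-fold higher or 2-fold lower (0 and 0), beside 8.82% and 4.48% of all genes. Their median log2 ratio was -0.16, close to the -0.12 of all genes, with 8 ratios above 0 and 14 below. These counts move with the floor and the scaling, because many of the genes are dim and several lie just within 2-fold.

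The 3 chains of C1q, the recognition protein upstream of C1r and C1s, were dim and brighter with IFNg. C1qa had signals of 26.2 and 50.8 (1.94-fold), C1qb 44.5 and 66.4 (1.49-fold) and C1qc 25 and 35.4 (1.42-fold). The other C1qb probe sets disagreed, with log2 ratios of 1.14 and -0.17, so the size for this gene is uncertain. C1q chains are also macrophage markers. The other 12 macrophage and microglia markers had 9 genes above the floor, all 9 with ratios below 0, beside 57.5% of all genes. Their summed signal was 1336 untreated and 844 with IFNg. Of the 9, 3 (Csf1r, Fcer1g and Laptm5) were at least 2-fold lower, beside 4.48% of all genes. The other Csf1r probe sets gave log2 ratios of -0.56 and -0.28. Fcer1g and Laptm5 were bounds, and the Laptm5 probe sets above the floor on both arrays gave -0.19 and -0.55. Ptprc, the pan-leukocyte gene, had 20.8 and 7.0, and Itgam, Aif1 and Cx3cr1 were at the floor on both arrays. The C1q ratios thus lay on the other side of 0 from the other macrophage markers above the floor, whose part in the complement results was not tested. In bulk RNA, fewer cells of a type and less RNA per cell cannot be told apart.

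In the lectin pathway, Masp1 had the ratio farthest below 0. It encodes a protease that resembles C1r and C1s in structure and is a target of the C1 inhibitor. Its brightest probe set had signals of 405 and 206.3, which is 1.96-fold lower with IFNg (log2 ratio -0.97). The other probe sets above the floor on both arrays were lower too, so that all 4 lay between -0.97 and -0.24. Masp1 and the related C1s1 thus stood on opposite sides of 0, both by brightest probe sets whose IDs mark shared sequence. Of the 4 Masp1 probe sets, only the dim 1419677_at (41.9 and 35.4) has no such ID, and its log2 ratio was -0.24. C1s1 had no probe set without such an ID. The mannose-binding lectin genes Mbl1 and Mbl2, the collectin genes Colec10 and Colec11 and the protease gene Masp2 were at the floor on both arrays. The ficolin genes Fcna (22.3 and 15.8) and Fcnb (23.4 and 4.9) were barely above it on the untreated array.

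Genes of the terminal pathway, whose products form the membrane attack complex that CD59 blocks, gave almost no signal. Hc, the gene for C5, was at 7.9 and 10.3, and C8a, C8b and C9 were also at the floor on both arrays. C6 (24.9 and 3.0) and C8g (24.1 and 10.6) were above the floor only on the untreated array. Cfp, the gene for properdin, which stabilises the alternative pathway convertase, had 8.9 and 27.1, so its 1.33-fold excess is a lower bound.

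Among further regulators, Cr1l, the gene for the rodent membrane inhibitor Crry, had signals of 380.4 and 350.2 and a log2 ratio of -0.12. C4bp, a fluid-phase cofactor of factor I, had 116.5 and 134.5 (log2 ratio 0.21). Cd46, a membrane cofactor of factor I, had 11.2 and 38.8 and was at least 1.90-fold higher. Cd55, which encodes decay-accelerating factor, was at 1.9 and 22.2, close to the floor on the IFNg array. Clu, which encodes the terminal pathway inhibitor clusterin, was bright on both arrays (7920.3 and 6607.1, log2 ratio -0.26), and its 4 probe sets lay between -0.29 and -0.18. Vtn, the gene for vitronectin, had 21.5 and 4.6, and Susd4 had 27.2 and 3.1. Of the bright inhibitors, Cr1l, Clu and Cd59a lay below 0 and Serping1 above it at 0.98, all within 2-fold. Cr1l was near the median of all genes (-0.12), and the dimmer C4bp lay above 0.

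Of the 6 complement receptor genes above the floor, 5 had ratios below 0, beside 57.5% of all genes, and none was counted as 2-fold lower, beside 4.48%. C3ar1 and Itgb2 lay at the threshold and passed 2-fold lower with a common 75th percentile, quantile normalization or loess. C3ar1, the C3a receptor gene, had 40.2 and 7.7 and was at least 1.97-fold lower, and its dimmer probe sets lay under the floor throughout. Itgb2, the beta chain of complement receptors on leukocytes, had 60.9 and 31.1 (1.96-fold lower). Cd93, a C1q-receptor-related surface gene of endothelial and myeloid cells, had 93.2 and 53.3 (1.75-fold lower). C1qbp, a C1q-binding protein found mostly in mitochondria, had 3245.8 and 2459.9 (1.32-fold lower). C5ar1 (23.3 and 15.5) and Itgax (16.3 and 21.7) were at the edge of the floor, and Cr2 and Vsig4 were at the floor on both arrays. C3ar1, Itgb2 and Cd93 are also expressed by leukocytes, and the macrophage markers given with the C1q chains were lower on the same array. Lower ratios were not limited to macrophage markers. Ratios lay below 0 for 6 of 6 endothelial markers above the floor (median log2 ratio -0.51), 10 of 14 RPE markers (-0.51) and 8 of 12 fibroblast markers (-0.17). The median over all genes was -0.12. Whether these differences are linked was not tested.

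**Figure D4:**
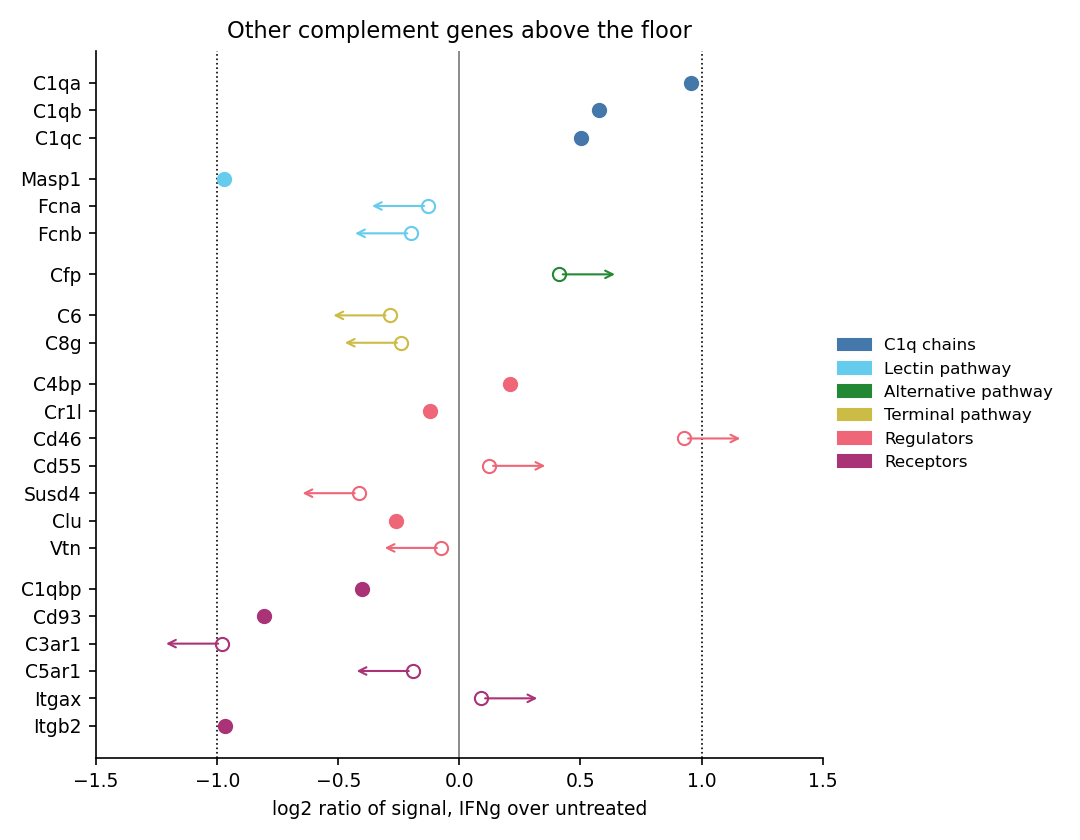
Log2 ratios of signal (IFNg over untreated) of the 22 other complement genes above the floor, coloured by role, with filled circles for genes above the floor on both arrays, open circles with arrows for bounds where 1 array was at the floor, and dotted lines at 2-fold. All 22 points lie between the dotted lines, the C1q chains to the right of 0 and Masp1, Cd93, C3ar1 and Itgb2 near the left line.

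Under each alternative the order of the ratios from C2 to C1s1, Serping1, C1ra, Cfb and Cd59a was the same wherever all had a value. C2 had log2 ratios from 1.99 to 2.26 and C1s1 from 1.68 to 1.90 over the alternatives that gave a value. Serping1 ran from 0.91 to 1.11, C1ra from 0.76 to 1.00, Cfb from 0.23 to 0.43 and Cd59a from -0.62 to -0.45. The direction of these 6 genes was the same under every alternative tried that gave a value. Dropping every probe set with a shared-sequence ID removed C1s1, which then had no value, and left C2 as the member past 2-fold.

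**Figure D5:**
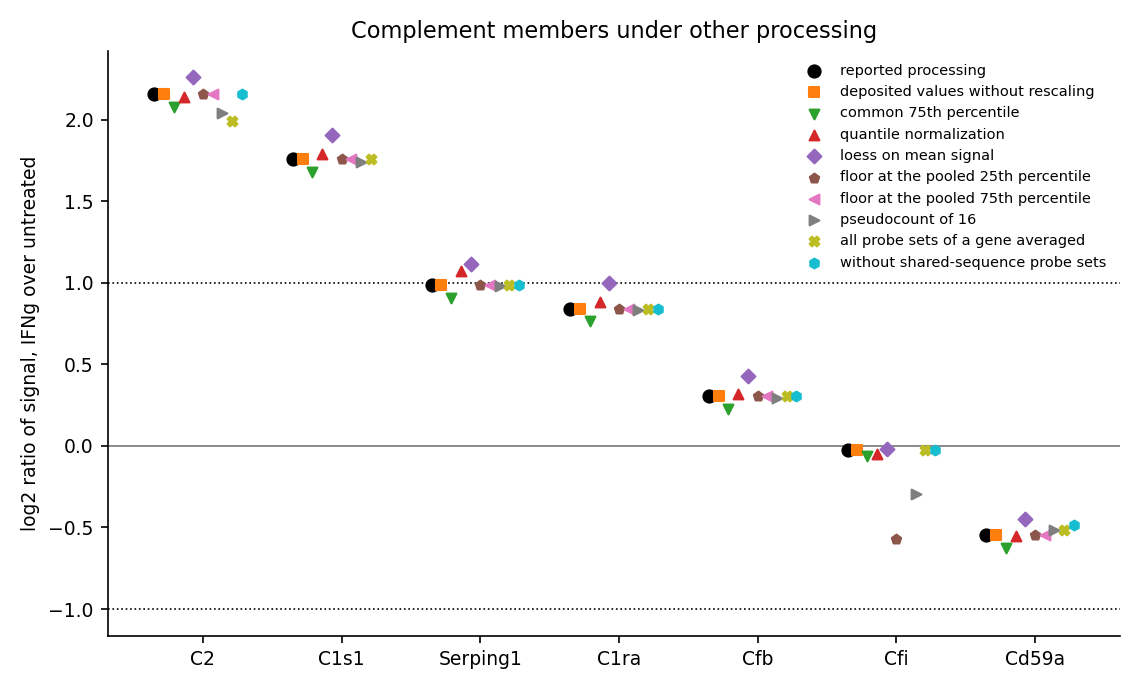
Log2 ratios of signal (IFNg over untreated) of the 7 member genes under the reported processing (black circles) and each alternative scaling, floor and probe-set rule (coloured symbols), with dotted lines at 2-fold. C2 and C1s1 stay above 2-fold wherever they have a value, Serping1 falls on either side of it (0.91 to 1.11), and the dim Cfi spreads with the floor.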

How the data were processed

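The authors deposited a linear signal intensity for each probe set. By the values, each array had been scaled to a mean of 100 after trimming 2% at each end. The sources used here do not name the summarisation software, detection calls or genome build. The 64 control probe sets were left out, both arrays were set to a common trimmed mean, signals under the floor of 20.4 (pooled median) were raised to it, and log2 was taken. Gene names came from the platform annotation, which can be old: 34945 probe sets have 1 gene, 932 several and 9160 none. A gene took the brightest of its own probe sets by mean log2 signal. A gene counted as higher or lower at 2-fold when its brighter array was above the floor. No test was possible with 1 array in each group. The processing was tested on simulated arrays. The members and lists were chosen with earlier results of these data known. All members were named with every probe set. Of the wider complement list, genes above the floor were named, and of the neighbours and markers those a result turned on. Marker lists covered RPE, macrophages, fibroblasts, endothelial cells (6 of 8 above the floor, summed signal 606 and 435) and T, B and NK cells (1 of 8 above the floor). Alternatives covered scaling, floor, pseudocount, probe-set choice and fold. A planned comparison of protein sequences was not made. Python 3.11.15, numpy 2.4.6, pandas 2.3.3, statsmodels 0.14.6 and matplotlib 3.10.9 were used.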

Additional observations from a re-analysis of the deposited data

How the results depend on the processing

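The number of members at least 2-fold higher (2 of 7, beside 8.82% of all genes) became 1 of 6 without probe sets of shared sequence, beside 9.25%. It was 4 of 7 at 1.5-fold, where C1ra and Serping1 joined, beside 17.9%. With quantile normalization or loess it was 3 of 7, where Serping1 joined, beside 7.95% and 9.35%. Of the other complement genes, those 2-fold higher (0 of 22) became 3 of 29 with the floor lowered to the pooled 25th percentile and 1 of 20 with a pseudocount of 16. They became 1 of 18 without shared-sequence probe sets and 2 of 22 at 1.5-fold. In the same order, the shares of all genes were 13.6%, 8.12%, 9.25% and 17.9%. Those 2-fold lower (0 of 22) became 3 of 22 at a common 75th percentile, 2 of 22 with quantile normalization and 2 of 22 with loess. They became 5 of 29 with the lower floor, 3 of 20 with the pseudocount and 4 of 22 at 1.5-fold. In the same order, the shares of all genes were 5.88%, 5.62%, 4.39%, 12.4%, 5.0% and 18.7%. Neighbouring genes 2-fold higher (1) became 4 with the lower floor, beside 13.6% of all genes. At 1.5-fold 4 neighbours were higher and 5 lower, beside 17.9% and 18.7% of all genes. Over all genes, the numbers higher and lower (1124 and 571 of 12743) became 2258 and 2059 of 16565 with the lower floor. With the floor raised to the pooled 75th percentile they were 574 and 163 of 7765. Of 12743 genes, they were 591 and 357 with probe sets averaged, 2287 and 2381 at 1.5-fold and 336 and 59 at 3-fold. A lower floor or fold admits dim genes and smaller ratios by construction, and a higher floor or fold leaves them out. The cause of the other shifts was not tested. Counting the probe set shared by C4a and C4b as a member, an alternative chosen after seeing the data, left the number 2-fold higher at 2 and gave a median log2 ratio of 0.79. The neighbouring genes were also rechecked after seeing the data. No paired analysis was possible because each group had 1 array. Signals near the floor, those of Cfi and most lectin and terminal pathway genes, limit what can be said of them.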
